A study of Mus musculus with 9 samples.

Results

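This account covers 9 transcription factors that set or maintain macrophage identity: Spi1, Maf, Pparg, Klf4, Bhlhe40, Bhlhe41, Mitf, Tfec and Irf8. They were taken by gene symbol from a table of 28998 genes, and all 9 were found once and passed the filter on low values, a mean of at least 1 FPKM (fragments scaled to transcript length and depth) over the 9 libraries. The cells were wild-type macrophages from C57 mice, made by keeping bone marrow monocytes in GM-CSF for 7 days. There were 3 libraries labelled Control, 3 from cells given JHU083 and 3 from cells given WGFT17, the drugs being applied for 36 h. JHU083 is known as a prodrug of the glutamine antagonist DON, and WGFT17 is a code name. The labels state neither doses, nor what Control cells received, nor whether replicates came from separate mice or cultures. The p-values therefore measure only the spread between these libraries, which may be technical.

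Macrophage identity rests on a small set of DNA-binding proteins. Spi1 encodes PU.1, the ETS factor that opens myeloid enhancers, and Irf8 encodes its partner in monocyte and dendritic cell development. Maf, a large MAF factor, restrains proliferation and supports genes of resident macrophages, and Klf4, a zinc finger factor, promotes monocyte differentiation and alternative activation. Pparg, a lipid-sensing nuclear receptor, acts downstream of GM-CSF in alveolar macrophages. Bhlhe40 and Bhlhe41 are closely related repressors that bind E-boxes and keep alveolar macrophages in their tissue state. Mitf and Tfec belong to the MiT family, which drives lysosomal and osteoclast genes.

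Library totals ranged from 56624220 to 69112134 expected counts. A count of 4 occurred 8030 times over all genes and libraries, more often than 3 (4287) or 5 (2712), so a count may not stand for a single read. All 12 macrophage markers had a mean of at least 1 FPKM, and their summed level ranged from 18616 to 20140 CPM (counts scaled to library size) in Control, from 18864 to 20725 in JHU083 and from 18070 to 20263 in WGFT17. The sum hides opposite moves of single markers. C1qa went from 428.26 to 482 FPKM in Control to 245.9 to 268.95 in WGFT17, and Ptprc from 8.77 to 10.47 to 14.82 to 15.62. Fibroblast genes were also high: 8 of 10 had a mean of at least 1 FPKM, and their sum was 13046 to 13843 CPM in Control, 8096 to 9596 in JHU083 and 2312 to 2408 in WGFT17. Smooth muscle genes, 3 of 4 with a mean of at least 1 FPKM, went the same way, at 3083 to 3294, 1894 to 2403 and 302 to 363 CPM. Of 9 dendritic cell markers, 3 reached that mean. These were H2-Aa, H2-Ab1 and Itgax, at 8.32 to 13.04, 13.34 to 18.00 and 31.59 to 42.46 FPKM in Control. Flt3, Xcr1 and Clec9a stayed at or below 0.13 FPKM in every library, Zbtb46 at or below 0.29 and Cd209a at or below 0.47. Ccr7 reached 1.07 FPKM in JHU083 replicate 1. The sum of the 9 was 256 to 352, 232 to 294 and 64.1 to 78.6 CPM. These sums moved with the groups, and their part in the results on the factors was not tested. In bulk RNA, fewer cells of a type and less RNA per cell cannot be told apart.

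**Figure D1:**
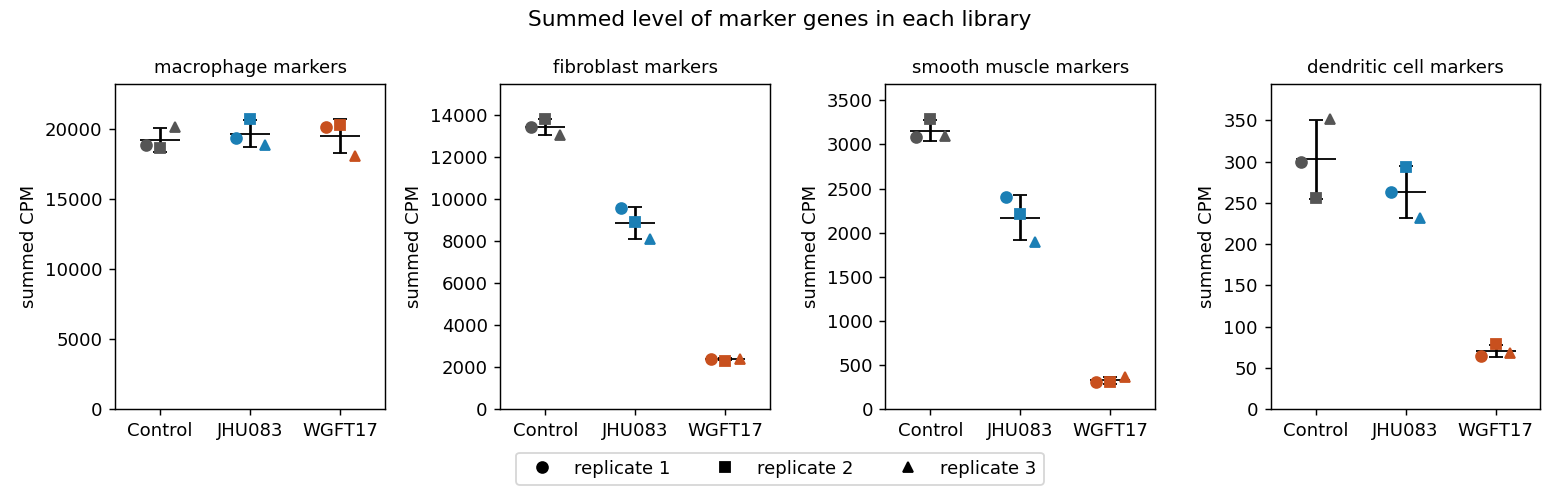
Summed CPM of macrophage, fibroblast, smooth muscle and dendritic cell marker genes (y axis) in each library of Control, JHU083 and WGFT17 (x axis); points are libraries, the bar is the mean and the whisker the SD of 3. Macrophage marker sums overlapped between the groups, although single markers moved in both directions. Fibroblast sums lay between 2312 and 2408 CPM in WGFT17 and between 13046 and 13843 in Control.

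JHU083 replicate 3 stood apart from its group in some genes. Cebpb, a myeloid C/EBP factor, measured 3.63 to 4.04 FPKM in Control and 65.87, 67.24 and 66.27 in WGFT17. In JHU083 it measured 38.81 and 36.25 FPKM in replicates 1 and 2 and 1.47 in replicate 3. Summed photoreceptor transcripts were 0.972 and 0.753 CPM in the first 2 of these libraries and 34.5 in replicate 3, within the 32.1 to 41.3 of Control, and WGFT17 had 0.679 to 1.11. Heart muscle transcripts went otherwise, with JHU083 replicate 2 apart at 1.80 CPM and replicates 1 and 3 at 168 and 251. They measured 227 to 266 CPM in Control and 0.425 to 0.936 in WGFT17. Values that JHU083 replicate 3 moved across the threshold or by over 1.5 times are given with and without it.

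Levels and changes below come from the same table. FPKM gives levels per length, so it allows genes to be ranked. Log2 changes come from edgeR's quasi-likelihood test on the expected counts, fitted over 11798 genes and all 9 libraries, and a gene was called changed at a Benjamini-Hochberg adjusted p under 0.05. The FPKM scale stood above the count scale in both drug groups: with a pseudocount of 0.1, the median log2 FPKM difference of all tested genes was 0.09 for JHU083 against Control and 0.11 for WGFT17 against Control, while the medians of the count fit were 0.0037 and 0.0044. Small FPKM differences are therefore read through the count fit.

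Against Control, 2 of the 9 factors were called in JHU083, both higher, where 24.0% of all tested genes were called (11.5% higher and 12.5% lower). In WGFT17, 4 of 9 were called, 3 higher and 1 lower, where 58.0% of all genes were called (28.0% higher and 30.0% lower). Between the drugs, 8 of 9 were called, 4 higher and 4 lower in WGFT17, where 44.7% of all genes were called (20.4% higher and 24.4% lower). The median absolute log2 change of the 9 factors was 0.12, 0.14 and 0.32 in these 3 comparisons, beside 0.16, 0.30 and 0.23 over all tested genes. Against Control, the factors were thus called no more often than genes at large. The comparisons share libraries and are not independent of each other.

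**Figure D2:**
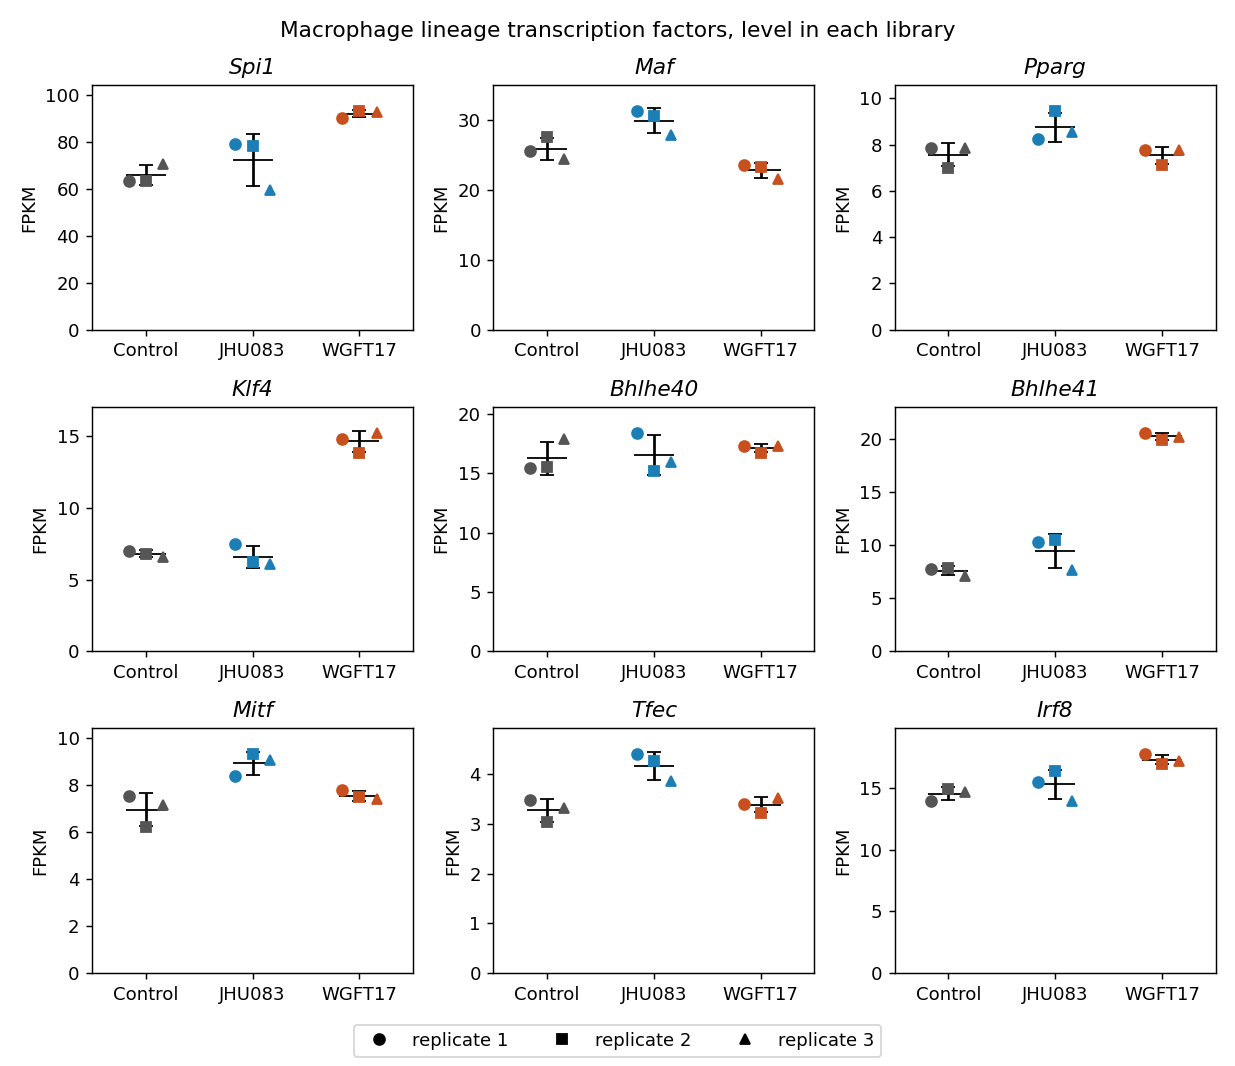
FPKM (y axis, linear, from 0) of the 9 factors in each library of Control, JHU083 and WGFT17 (x axis); points are libraries, the bar is the mean and the whisker the SD of 3. Klf4 and Bhlhe41 in WGFT17 lie above every other library, from 13.80 and 19.93 FPKM upwards, and JHU083 replicate 3 lies low for Spi1 at 59.78.

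Klf4 and Bhlhe41 had the largest changes among the 9 in WGFT17, so their promoters are shown, read from RefSeq's GRCm38.p6 entries as 250 bases before to 50 after the start. Each window holds a single E-box, CACGTG, the palindrome recognised by BHLHE40, BHLHE41 and MiT factors, set in capitals. The Klf4 window is chr4:55532426-55532725 and the Bhlhe41 window chr6:145865371-145865670, both on the minus strand.
Klf4: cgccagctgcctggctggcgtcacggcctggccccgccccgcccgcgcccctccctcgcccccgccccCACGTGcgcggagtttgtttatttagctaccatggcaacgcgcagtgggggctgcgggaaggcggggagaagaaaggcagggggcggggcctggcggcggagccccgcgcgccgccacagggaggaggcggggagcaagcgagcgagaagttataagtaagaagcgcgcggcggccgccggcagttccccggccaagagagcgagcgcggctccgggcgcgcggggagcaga
Bhlhe41: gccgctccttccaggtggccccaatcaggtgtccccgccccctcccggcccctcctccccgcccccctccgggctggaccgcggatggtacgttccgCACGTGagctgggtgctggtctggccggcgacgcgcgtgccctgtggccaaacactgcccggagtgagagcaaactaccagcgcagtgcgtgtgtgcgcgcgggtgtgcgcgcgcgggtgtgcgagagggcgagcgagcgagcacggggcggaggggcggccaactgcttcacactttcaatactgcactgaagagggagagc
The E-box was found in 2349 of 32851 promoter windows of this length (7.15%). Neither window held GAGGAA, the core of a PU.1 site, present in 28.3% of windows, or CCACCC, a KLF box, present in 31.5%; both strands were searched. The reference table also held windows for Tfec, Mitf, Pparg and Irf8, and none of these contained CACGTG. It held no window for Spi1, Maf or Bhlhe40, so these factors could not be compared. A match is a description of the sequence and does not show binding.

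Bhlhe41 had the largest rise of the 9 in WGFT17 against Control; against JHU083, Klf4 rose more. Its gene lies at chr6:145858243-145865558 on the minus strand of GRCm38 and is overlapped on the other strand by the provisional gene Gm43909; the counting strand is not given in the sources used here, so reads of the 2 cannot be told apart for certain. It measured 7.79, 7.87 and 7.13 FPKM in the Control libraries, 10.30, 10.46 and 7.64 in those with JHU083 and 20.59, 19.93 and 20.24 in those with WGFT17. All WGFT17 libraries were above all others, and JHU083 replicate 3 lay within the Control range. The log2 change in WGFT17 against Control was 1.31 ± 0.098 (SE, adjusted p = 7.13e-07), a 2.47-fold rise. Against JHU083 it was 1.08 (adjusted p = 3.99e-06). In JHU083 against Control it was 0.22 ± 0.098 (adjusted p = 0.119) and not called; without JHU083 replicate 3 it was 0.35 (adjusted p = 0.000432) and called, the adjusted p ranging from 0.000432 to 0.388 over the alternatives. Of 784 tested genes that the table annotates as transcription factors, 42 had a larger absolute change than Bhlhe41 in WGFT17 against Control.

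Its paralog Bhlhe40 was not called in any comparison. At chr6:108660629-108666925 on the plus strand, overlapped by the antisense gene 0610040F04Rik, it measured 15.42, 15.48 and 17.86 FPKM in the Control libraries, 18.39, 15.18 and 15.96 in those with JHU083 and 17.29, 16.70 and 17.26 in those with WGFT17. The groups overlapped. The log2 change was -0.07 in JHU083 against Control (95% interval -0.25 to 0.10) and -0.04 in WGFT17 against Control (-0.21 to 0.14), with adjusted p = 0.531 and 0.698. The ratio of Bhlhe41 to Bhlhe40 in FPKM was 0.471 ± 0.062 (SD, n = 3) in Control, 0.576 ± 0.11 in JHU083 and 1.19 ± 0.011 in WGFT17, so the order of the pair was the opposite in WGFT17. All 3 WGFT17 ratios were above all 6 others.

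Klf4 was the other large riser. Its gene lies at chr4:55527143-55532466 on the minus strand, with no annotated overlap. It measured 7.02, 6.80 and 6.55 FPKM in the Control libraries, 7.46, 6.19 and 6.05 in those with JHU083 and 14.81, 13.80 and 15.21 in those with WGFT17. Control and JHU083 overlapped, and the lowest WGFT17 library was above every other library. Against Control, WGFT17 showed a log2 rise of 1.00 ± 0.085 (adjusted p = 1.94e-06), 1.99-fold, and against JHU083 of 1.14 (adjusted p = 8.2e-07). JHU083 against Control gave -0.14 (95% interval -0.33 to 0.04, adjusted p = 0.243), and -0.24 (adjusted p = 0.0424, called) without JHU083 replicate 1, with a range of 0.0424 to 0.657 over the alternatives. Of 10 tested KLF genes, a family described after its values were seen, none was called in JHU083 against Control, where 24.0% of all genes were. In WGFT17 against Control 5 rose and 1 fell, where 58.0% of all genes were called (28.0% higher and 30.0% lower). Beside Klf4, Klf9 rose by 0.56, Klf13 by 0.46 and Klf10 by 0.41, while Klf7 changed by -0.56; Klf2, a relative with anti-inflammatory roles, had -0.05 (adjusted p = 0.831).

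**Figure D3:**
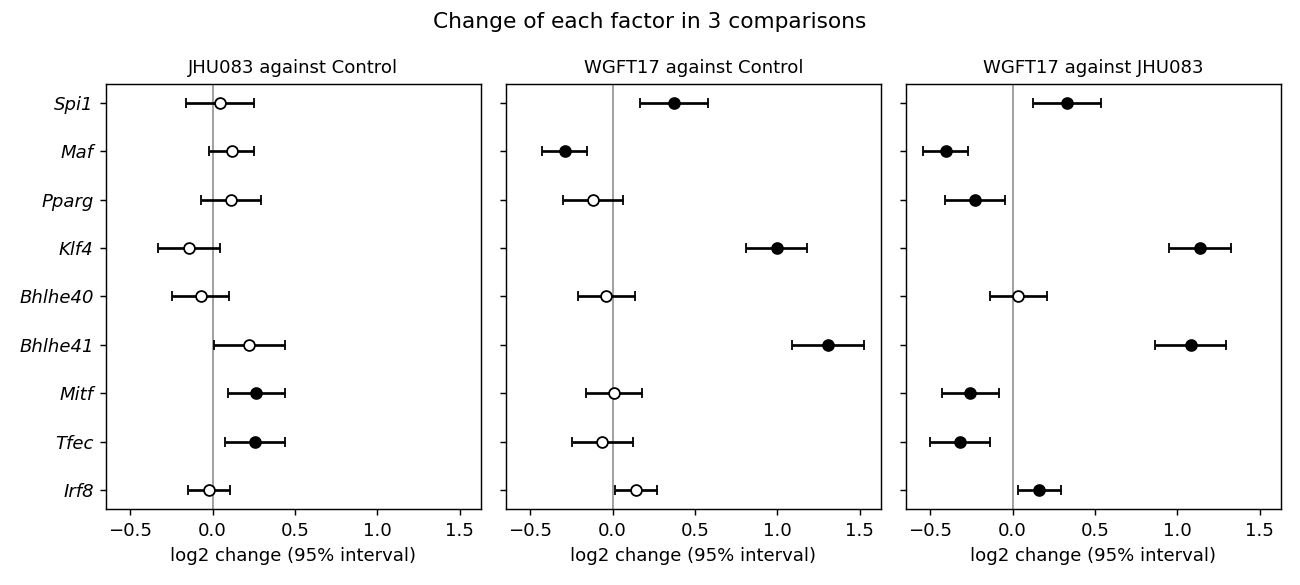
Log2 change (x axis) with its 95% interval for each factor (y axis) in JHU083 against Control, WGFT17 against Control and WGFT17 against JHU083; filled points were called at an adjusted p under 0.05. Bhlhe41 and Klf4 reach 1.31 and 1.00 in WGFT17 against Control, and Mitf and Tfec are filled in JHU083 against Control but lie near 0 in WGFT17 against Control.

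Spi1 was the most abundant of the 9 in every group and rose in WGFT17. Its gene, at chr2:91082390-91114366 on the plus strand in the table, measured 63.34, 63.52 and 70.85 FPKM in the Control libraries, 79.39, 78.48 and 59.78 in those with JHU083 and 90.36, 93.22 and 92.92 in those with WGFT17. WGFT17 did not overlap either group. In JHU083, replicates 1 and 2 were above Control and replicate 3 was below it. The log2 change was 0.37 ± 0.094 in WGFT17 against Control (adjusted p = 0.0055), 0.33 in WGFT17 against JHU083 (adjusted p = 0.0141), which was 0.22 without JHU083 replicate 3 (adjusted p = 0.00856, 0.00012 to 0.0448 over the alternatives), and 0.04 in JHU083 against Control (adjusted p = 0.766). Without JHU083 replicate 3 the last value was 0.16 (adjusted p = 0.0515); with replicate 3 as the only JHU083 library, assumed to vary like the other groups, it was -0.23 (adjusted p = 0.049). Over all alternatives the adjusted p ranged from 0.049 to 0.955.

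Irf8, at chr8:120736358-120756694 on the plus strand, overlaps the same-strand gene Gm20388, so its count could be shared. It measured 13.99, 14.95 and 14.72 FPKM in the Control libraries, 15.51, 16.37 and 13.99 in those with JHU083 and 17.73, 16.97 and 17.21 in those with WGFT17. The WGFT17 libraries were the 3 highest, yet the change against Control, 0.14 ± 0.058, had an adjusted p = 0.0582 and was not called. It was called in 11 of 21 other settings, among them the fits without JHU083 replicate 2 (adjusted p = 0.0427) or replicate 3 (adjusted p = 0.0118). Against JHU083 the change was 0.16 (adjusted p = 0.0399) and was lost when any single library other than Control replicate 1 was left out, with adjusted p from 0.0524 to 0.118; without JHU083 replicate 3 it was 0.11 (adjusted p = 0.0728). Among 7 tested IRF genes, a family described after its values were seen, 4 rose and 0 fell in WGFT17 against Control. Over all genes, 58.0% were called there (28.0% higher and 30.0% lower). The risers were Irf7 at 0.96, Irf9 at 0.57, Irf5 at 0.36 and Irf2 at 0.14.

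Maf was the only factor of the 9 that fell in WGFT17 against Control. At chr8:115682942-115707794 on the minus strand, with the antisense gene Gm15655, it measured 25.52, 27.64 and 24.49 FPKM in the Control libraries, 31.27, 30.63 and 27.87 in those with JHU083 and 23.58, 23.29 and 21.56 in those with WGFT17. The WGFT17 libraries were the 3 lowest, in CPM as in FPKM. The JHU083 libraries were the 3 highest in FPKM only; in CPM, JHU083 replicate 3 (250) lay below Control replicate 2 (261). WGFT17 fell by 0.29 against Control (SE 0.061, adjusted p = 0.00192) and by 0.41 against JHU083 (adjusted p = 0.000243), and JHU083 against Control gave 0.12 (adjusted p = 0.193). The last change was called in 2 of 21 other settings, where it ranged from 0.02 to 0.21 over all 21 (lowest adjusted p = 0.0409).

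**Figure D4:**
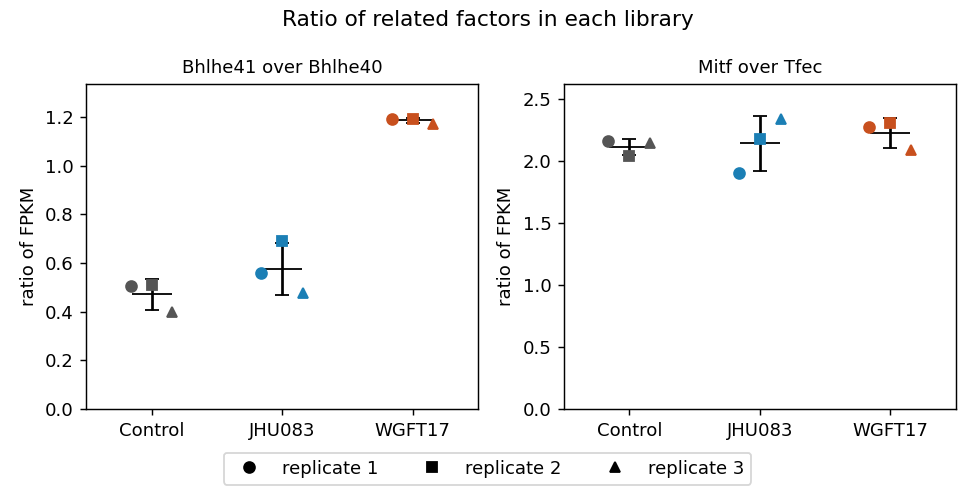
Ratio of FPKM (y axis) of Bhlhe41 to Bhlhe40 and of Mitf to Tfec in each library of Control, JHU083 and WGFT17 (x axis); points are libraries, the bar is the mean and the whisker the SD of 3. The Bhlhe41 to Bhlhe40 ratio is higher in every WGFT17 library than in any other, and the Mitf to Tfec ratio overlaps between the groups at means of 2.12, 2.14 and 2.23.

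Mitf and Tfec were the 2 factors called in JHU083 against Control. Mitf, at chr6:97807052-98018707 on the plus strand with the pseudogene Gm15531 on the other strand, measured 7.52, 6.19 and 7.13 FPKM in the Control libraries, 8.38, 9.29 and 9.05 in those with JHU083 and 7.77, 7.46 and 7.38 in those with WGFT17. Its JHU083 libraries were the 3 highest. Mitf rose by 0.26 ± 0.078 in JHU083 against Control (adjusted p = 0.0318) and had 0.01 in WGFT17 against Control (adjusted p = 0.934); WGFT17 was lower than JHU083 by a log2 change of -0.26 (adjusted p = 0.0199).

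Tfec, at chr6:16833373-16898441 on the minus strand, was the least abundant. It measured 3.48, 3.03 and 3.32 FPKM in the Control libraries, 4.40, 4.26 and 3.86 in those with JHU083 and 3.41, 3.23 and 3.53 in those with WGFT17, and its JHU083 libraries were again the 3 highest. It rose by 0.25 ± 0.083 in JHU083 against Control (adjusted p = 0.046), had -0.06 in WGFT17 against Control (adjusted p = 0.545) and was lower in WGFT17 than in JHU083, at -0.32 (adjusted p = 0.00899). These JHU083 calls against Control were close to the threshold: Mitf was called in 14 of 21 other settings and lost without Control replicate 2 (adjusted p = 0.11), Control replicate 3 (0.064) or JHU083 replicate 2 (0.0954), and Tfec was called in 7 of 20 and lost without any single library other than JHU083 replicate 3 (adjusted p from 0.0523 to 0.164). Between the drugs, the Mitf call was lost without JHU083 replicate 2 (adjusted p = 0.0641), WGFT17 replicate 2 (0.0581) or WGFT17 replicate 3 (0.0696). Of their relatives, Tfe3 rose by 0.20 in WGFT17 against Control (adjusted p = 0.00551) and Tfeb had -0.18 (adjusted p = 0.139).

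Pparg, at chr6:115360951-115490399 on the plus strand with the antisense gene Gm44079, differed between the drugs only. It measured 7.83, 7.00 and 7.86 FPKM in the Control libraries, 8.24, 9.44 and 8.54 in those with JHU083 and 7.75, 7.11 and 7.75 in those with WGFT17. Control and WGFT17 overlapped. The JHU083 libraries were the 3 highest in FPKM only; in CPM, JHU083 replicate 1 (26.2) lay below Control replicates 1 (26.7) and 3 (27.1). The log2 change was 0.11 in JHU083 against Control (95% interval -0.07 to 0.30, adjusted p = 0.341) and -0.12 in WGFT17 against Control (-0.30 to 0.07, adjusted p = 0.251). WGFT17 against JHU083 gave -0.23 (adjusted p = 0.0419), called in 11 of 21 other settings and lost without Control replicate 1 or 3, JHU083 replicate 2 or any WGFT17 library, with adjusted p from 0.0509 to 0.148.

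In order of mean FPKM, Control ran Spi1, Maf, Bhlhe40, Irf8, Bhlhe41, Pparg, Mitf, Klf4 and Tfec, and Bhlhe41, Pparg, Mitf and Klf4 overlapped between neighbours. In WGFT17, Bhlhe41 stood in the third place and Klf4 in the sixth, both without overlap with the next gene, and Irf8 and Bhlhe40 overlapped, as did Pparg and Mitf. Spi1 lay at the 95th to 96th percentile of tested genes in all groups and Tfec at the 30th to 35th.

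Across the 9 libraries, the genes whose log2 CPM ran most like each factor were found by Pearson correlation over 6460 genes with a mean of at least 5 FPKM; all points share the 3 groups, so the values are descriptions. Many genes ran as closely with some factors: 311 had r over 0.95 with Bhlhe41 and 203 with Klf4. For Bhlhe41 the first were Avil (r = 0.995; 0.40, 0.97 and 31.8 FPKM in the 3 groups, so that WGFT17 alone took it past the minimum), H2-Q1 and Lamp1, and for Klf4 Col18a1 (0.992), Pabpc1 and Trib3, the last a stress-response pseudokinase at 6.73 FPKM in Control, 5.89 in JHU083 and 62.1 in WGFT17. Spi1 ran most like Cebpa (0.983), Igsf8 and Pex6, Irf8 like Map1lc3b (0.980), Psmd4 and Efhd2, and Maf like Emp1 (0.984), Eid1 and Fen1. Mitf ran most like Rap1gds1 (0.961), Taok3 and Slc44a1, Tfec like Cd300ld (0.949), Irf1 and Klc1, and Pparg like Ndrg3 (0.948), Crkl and Nptn. Bhlhe40 had no close match, with Ubl7 first at 0.819, then Hdgf and Pithd1. Among the factors themselves, Klf4 and Bhlhe41 ran together (0.947), as did Spi1 and Irf8 (0.904) and Mitf and Tfec (0.829), while Maf and Klf4 ran opposite (-0.899).

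Lists of genes tied to the factors were counted next; they come from general knowledge and were written with earlier results of these data known. In WGFT17 against Control, 28.0% of all genes were called higher and 30.0% lower. MAF-linked genes of resident macrophages were mostly lower there: 9 of 12 tested fell and 3 rose, with a median log2 change of -0.91 beside 0.0044 over all genes. F13a1, a transglutaminase, had -1.85, Folr2, a folate receptor, -1.24, Selenop, a selenium carrier, -1.07, and C1qa, a complement subunit, -0.93; C1qa went from 460 ± 28 to 261 ± 13 FPKM (SD, n = 3). Genes of the MiT/TFE program rose more often, 14 of 20 with 3 falling and a median of 0.48. The autophagy receptor Sqstm1 rose by 2.03, from 146 ± 5.1 to 644 ± 28 FPKM, and the sialidase Neu1 by 0.70. The falling genes included Dcstamp, which fuses osteoclasts, at -4.03, and Acp5, the osteoclast acid phosphatase, at -2.16. Dcstamp averaged 2.14 FPKM in Control and 0.14 in WGFT17, the latter under the minimum of 1 FPKM. Both genes are among the 7 osteoclast markers, whose sum was 345 to 431 CPM in Control and 162 to 170 in WGFT17.

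PPAR-gamma linked lipid genes rose in 8 and fell in 2 of 12, with a median of 0.37. Plin2, which coats lipid droplets, rose by 1.19, Lpl, a lipase, by 0.78 and Fabp5, a fatty acid carrier, by 0.47, while Pdk4, which restrains pyruvate oxidation, had -2.01. PU.1-linked genes were split, 6 higher and 5 lower of 19, close to the 28.0% and 30.0% over all genes. Both chains of the GM-CSF receptor were higher, Csf2ra by 1.07 and Csf2rb by 0.66, as were the scavenger receptor Msr1 by 0.92 and Ptprc by 0.56. The integrin Itgam, the adaptor Fcer1g and the CSF-1 receptor Csf1r were lower, at -0.55, -0.43 and -0.36. Alveolar macrophage genes of GM-CSF signalling fell in 6 and rose in 1 of 9, with a median of -0.43. Chil3 had -4.74, Krt19 -3.20, Siglecf -2.41 and Itgax -2.34, the last also a member of the dendritic cell sum given above. Chil3, Krt19 and Siglecf averaged 7.43, 4.69 and 1.66 FPKM in Control and 0.29, 0.54 and 0.33 in WGFT17. Their WGFT17 means were under the minimum of 1 FPKM, so the other groups took them past the filter and the size of their falls is uncertain. Of 4 KLF4-linked genes 3 fell and none rose, Chil3 among them, with Mrc1, the mannose receptor, at -1.03 and Arg1 at -0.68.

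Other myeloid transcription factors rose in 11 and fell in 1 of 18 in WGFT17 against Control, with a median of 0.29. Cebpb had the largest rise of the list, 4.02 (adjusted p = 0.00116). Id2, an inhibitor of bHLH factors, rose by 0.95, Cebpa by 0.80, Zeb2 by 0.53 and Ets2 by 0.44. Without JHU083 replicate 3, the counts of this list were 11 higher and 3 lower. Over all 11798 tested genes, 3300 higher and 3537 lower became 3745 and 3853 without that library. Of 7 IRF8-linked genes 3 rose and 2 fell, with Id2 and Naaa higher and Cst3 and Gbp2 near -0.96 and -0.95. Of 12 clock genes, 4 rose and 4 fell, with Nr1d1 at -0.83, Dbp at -0.84, Clock at 0.38 and Nr1d2 at 0.34. The list was named for E-boxes, the class of sites that BHLHE40 and BHLHE41 bind, but E-boxes in these genes were not examined. Over all 784 tested transcription factors, 273 rose and 164 fell.

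**Figure D5:**
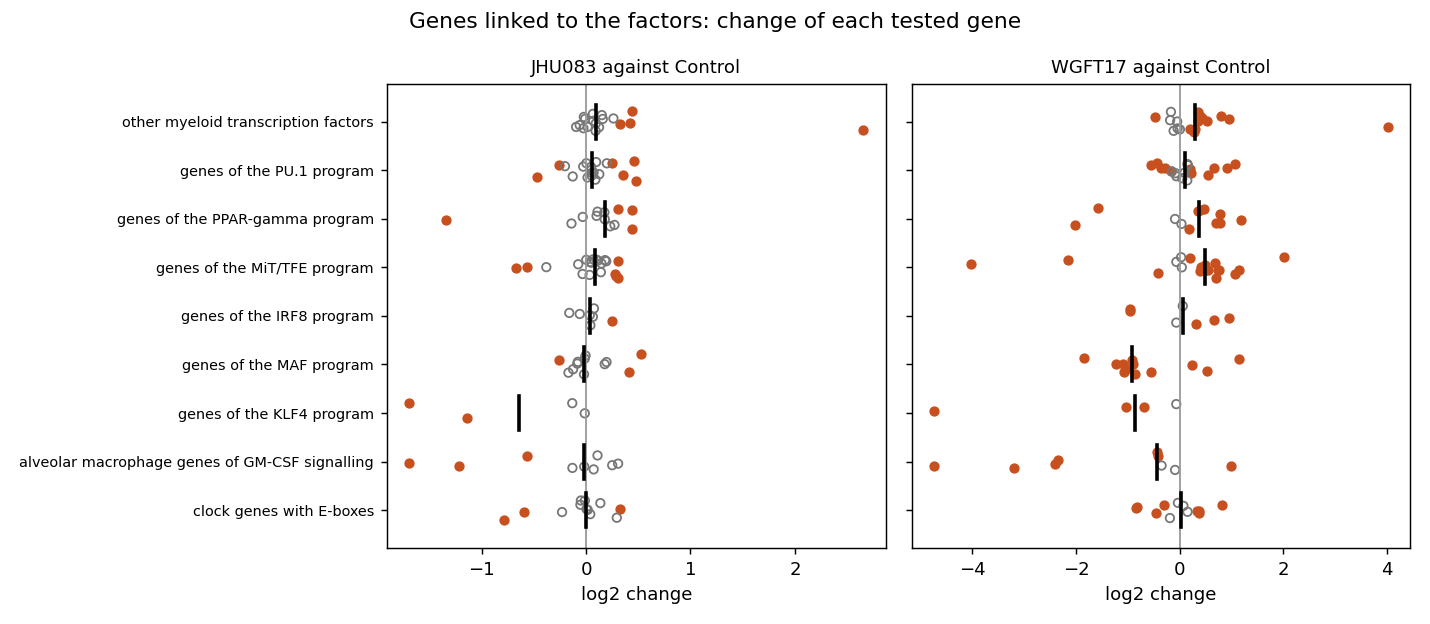
Log2 change (x axis) of each tested gene of 9 lists (y axis) in JHU083 against Control and WGFT17 against Control, on separate scales; filled points were called at an adjusted p under 0.05 and the bar is the list's median. The median of the MAF list is -0.91 in WGFT17 and -0.02 in JHU083, the latter being 0.01 without JHU083 replicate 3.

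In JHU083 against Control, where 11.5% of all genes were called higher and 12.5% lower, the list counts were smaller, as was the count over all genes. The MAF list had 2 higher and 1 lower of 12, with Mertk, an efferocytosis receptor, at 0.42, Cd163 at 0.52 and C1qa at -0.26. Cd163 averaged 0.897 FPKM in Control, under the minimum of 1 FPKM, 1.38 in JHU083 and 1.41 in WGFT17. The drug groups thus took it past the filter, and it is also among the 3 MAF-linked genes that rose in WGFT17 against Control. The MiT/TFE list had 4 higher and 2 lower of 20, among them the lysosomal gene Ostm1 at 0.31 and the protease Ctsk at -0.57; without JHU083 replicate 3 these counts were 6 and 1. The PPAR-gamma list had 3 higher and 1 lower of 12, with Lpl at 0.44 and Pdk4 at 0.30, and the PU.1 list 4 higher and 2 lower of 19, with Msr1 at 0.47; without that library the PU.1 counts were 5 and 4. Other myeloid factors had 4 higher and 0 lower of 18, Zeb2 first at 0.42. Cebpb was among the 4, with only JHU083 replicates 1 and 2 above Control. Without JHU083 replicate 3 the counts of this list were 7 and 0. Over all 11798 tested genes, 1351 were called higher and 1480 lower, and 1855 and 1876 without it. The alveolar list had 0 higher and 3 lower of 9, the KLF4 list 0 and 2 of 4, the IRF8 list 1 and 0 of 7 and the clock list 1 and 2 of 12.

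Set directly against JHU083, WGFT17 had 1 MAF-linked gene higher and 10 lower of 12 (median -0.77) and 13 MiT/TFE genes higher and 2 lower of 20 (median 0.24). The PPAR-gamma list had 5 higher and 1 lower, the PU.1 list 6 and 4, other myeloid factors 5 and 3, the IRF8 list 3 and 3, the alveolar list 1 and 5, the KLF4 list 0 and 2 and the clock list 3 and 5. Over all genes, 20.4% were higher and 24.4% lower. Without JHU083 replicate 3, the MiT/TFE list had 15 higher and 2 lower, other myeloid factors 7 and 4 and the PU.1 list 7 and 5. Leaving it out also changed the counts over all 11798 tested genes, from 2403 higher and 2874 lower to 2646 and 3067.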

How the data were processed

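Poly(A) RNA of 9 libraries (3 Control, 3 JHU083, 3 WGFT17) was sequenced as read pairs, per the labels' protocols, with strand-marked libraries. HISAT2 2.2.1, cutadapt 1.9, edgeR, StringTie 2.1.6 and DESeq2 are listed with no role stated, together with the build mm9, per the submitters' processing notes. The deposited table gives an expected count and an FPKM value per gene and library, per the file headers; the counts are whole numbers and needed no rounding. Of 28926 identifiers matched to GENCODE M21 (GRCm38), 25194 (87.1%) had equal start and end, so positions are given in GRCm38. Columns with another prefix than WGFT17 were matched through the sample descriptions.

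The 11798 genes averaging 1 FPKM or more were tested with edgeR 4.0.16 (R 4.3.3), quasi-likelihood, TMM factors, all 9 libraries in 1 fit, with Benjamini-Hochberg adjustment within each comparison. The common dispersion was 0.01486 (biological coefficient of variation 0.122), with 6 residual degrees of freedom. Alternatives used other scaling, filters of no minimum or 5 FPKM, DESeq2 1.42.0, limma 3.58.1 on log2 FPKM (pseudocounts 1 and 0.1), counts divided by 4, fits of 2 groups, the replicate number as a block and each library left out. In simulated data with 200 changed genes of 11798, 1.5-fold changes were recovered in 76% (JHU083 against Control), 69% (WGFT17 against Control) and 69% (WGFT17 against JHU083), and 2-fold changes in 98%, 98% and 99%. False calls numbered 9, 6 and 8. The simulation used 1 common dispersion, no outlying library and fewer changed genes than were called in the data. Its recovery rates therefore need not hold for these comparisons.

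All members are named; the 3 genes of highest correlation with each and up to 4 genes of smallest adjusted p per list and comparison could be named. The families, the ratios and Cebpb were chosen after their values were seen. List counts and medians include 2 genes whose own values are not reported here. The members and lists were chosen with earlier results of these data known.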

Additional observations from a re-analysis of the deposited data

How the results depend on the processing

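In 21 alternative settings, Spi1, Maf, Klf4 and Bhlhe41 kept their direction and their call in WGFT17 against Control and against JHU083; in WGFT17 against Control, Bhlhe41 ranged from 1.27 to 1.40, Klf4 from 0.97 to 1.09, Spi1 from 0.34 to 0.49 and Maf from -0.32 to -0.17. The 2 factors called in JHU083 against Control became 1 with median-ratio factors, 1 with a minimum of 5 FPKM, where Tfec was not tested, 0 without an FPKM minimum, and 0 with only the 2 groups compared. With JHU083 replicate 3 alone neither was called, and the count of 1 was Spi1, lower; leaving out each library gave 0 to 3. The cause was not tested. Leaving out each library gave 5 to 7 called factors in WGFT17 against JHU083, 5 being the count without WGFT17 replicate 2 or replicate 3. With the replicate number as a block, 0, 4 and 6 factors were called in the 3 comparisons. Deviations from the group mean correlated at -0.034 to 0.161 between same-numbered libraries and at -0.146 to 0.133 between differently numbered ones. With 3 libraries per group, these values cannot tell whether libraries of the same number shared material.

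Small changes that were not called turned sign in some settings. In JHU083 against Control, Irf8 had 0.0105 with library totals alone and 0.0646 and 0.0683 with limma on log2 FPKM (pseudocounts 1 and 0.1), Bhlhe40 had 0.0201 and 0.0211 with limma, and with JHU083 replicate 3 alone Spi1 had -0.229 and Bhlhe41 -0.0791. In WGFT17 against Control, Mitf had -0.0059 with upper-quartile factors, and with limma Bhlhe40 had 0.0707 and 0.0746 and Tfec 0.0386 and 0.0490. Leaving out each library gave, in JHU083 against Control, Spi1 -0.0254 to 0.159, Bhlhe40 -0.157 to 0.0064 and Irf8 -0.0767 to 0.0303, in WGFT17 against Control, Bhlhe40 -0.0776 to 0.0412 and Mitf -0.0734 to 0.0686, and in WGFT17 against JHU083, Bhlhe40 -0.0210 to 0.118.

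Over all genes, a minimum of 5 FPKM, which tests fewer genes, gave 4151 calls in place of 6837 in WGFT17 against Control and 3305 in place of 5277 in WGFT17 against JHU083, and JHU083 against Control had 1534 without Control replicate 2 and 1568 without Control replicate 3 in place of 2831. Over the 9 lists and 21 settings, the number of called genes moved by over 1.5 times in 41 of the 189 cases in JHU083 against Control, 3 in WGFT17 against Control and 6 in WGFT17 against JHU083; in JHU083 against Control it did so for the PPAR-gamma list in 9 of 21 settings and for other myeloid factors in 10. Recovery of changes under 1.5-fold was not simulated.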
